A study of Arabidopsis thaliana with 24 samples.

Results

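Roots of the Arabidopsis thaliana double mutant bzip1/bzip53 were compared after 1 h in 150 mM NaCl with roots of the same mutant without added salt. The comparison held 3 salt arrays and 3 control arrays, which are 6 of the 24 arrays of the series. They were chosen by their titles alone. The mutant is labelled a knockout of both genes in the Col-0 background, and what kind of lesion they carry is not stated there. All groups used here were roots of plants grown for 6 weeks in liquid culture, although some labels speak of seedlings. The other groups used were Col-0 wild type without salt and after 1 h, and the mutant after 3 h and 6 h of the same salt, each with 3 arrays. Roots in salt, of either genotype, were taken at one time near the end of the light period, per the labels' protocols, and no hour is given for the untreated roots. The labels do not say how plants were divided between arrays, so the p-values reflect only how these arrays spread, which may be technical in part.

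BZIP1 and BZIP53 belong to the S1 group of basic leucine zipper (bZIP) transcription factors, small proteins that bind DNA as pairs with each other or with bZIP factors of group C. They are known for adjusting amino acid and sugar metabolism when energy is short, downstream of the kinase SnRK1. Salt reaches root cells first as a loss of water, followed by a calcium signal and by hormones such as abscisic acid and jasmonate. Each array, an Affymetrix ATH1 chip, reads a gene through a set of short probes, and a level is the log2 of that set's summarised brightness. A difference is the mean of the 3 salt arrays minus the mean of the 3 control arrays (log2), and a fold is 2 to that power. Probe sets with an adjusted p under 0.05 were called, from limma with Benjamini-Hochberg adjustment over 22746 probe sets, and "rose" and "fell" are used only of called genes. Levels under 5 lie near the background, and differences that start or end there have no exact size. In RNA from whole roots, fewer cells of a type and less RNA per cell cannot be told apart.

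BZIP53 (AT3G62420) checked the genotype label. Its levels were 9.24, 9.17 and 9.16 in the mutant control arrays and 8.74, 8.67 and 8.82 in the mutant arrays at 1 h. In wild type they were 10.37, 10.47 and 10.86 in the control and 10.93, 10.998 and 11.11 at 1 h. All 6 mutant arrays lay below all 6 wild-type arrays, with signal left in the mutant, and the position of the probes relative to the lesion is unknown here. BZIP1 itself matched no probe set in the gene table. As for the tissue, only 1 of the 23 root cell type marker names written down was measured, EXPA7, an expansin of root hair cells, at 7.71 to 8.41 in the mutant control. Of 4 shoot marker genes, LHCB4.1, an antenna protein of photosystem II, lay at 7.53 to 7.88 in the mutant control arrays, and the other 3 had mean levels of 4.58 to 5.86. None of the 4 was called after salt, and LHCB4.2 was called without control array 3 (0.54 against 0.36, adjusted p = 0.0485).

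One control array of the mutant stood apart. The probe sets for bacterial RNAs that are added during labelling reached 8.34 on mutant control array 1 and at most 4.69 on the other 23 arrays. The correlations of that array with the other control arrays of the mutant were 0.989 and 0.987, and theirs with each other was 0.997. The 3 salt arrays also differed among themselves. Over the 583 probe sets that rose at least 2-fold in wild type, the median level was 6.96, 6.40 and 6.22 in the mutant control arrays 1, 2 and 3, and 8.46, 7.73 and 8.96 in the mutant salt arrays. Control array 1 was the highest control for 73.4% of these probe sets, and salt array 2 was the lowest salt array for 89.7%. Many genes below repeat that order.

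After 1 h of salt, 5473 probe sets (24.1%) were called in the mutant, 2400 of them higher (10.6%) and 3073 lower (13.5%). With a fold of at least 2, 605 were higher (2.66%) and 545 lower (2.4%). The large differences were mostly rises. In 8266 probe sets (36.3%) the 3 salt arrays and the 3 control arrays did not overlap, 5189 of them called. Of the called probe sets, 174 rose by at least 2 on the log2 scale and 33 fell by as much. The median difference over all probe sets was -0.02. Without control array 1, 4674 probe sets were called, 1798 of them higher.

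Among genes with a symbol, the largest rise was in ORA47, an AP2/ERF transcription factor that activates genes of jasmonate synthesis. Its levels were 9.13, 5.78 and 4.54 in the control arrays and 11.26, 9.64 and 11.52 after salt. The controls spread over more than 4 log2 units, and control array 1 nearly reached the lowest salt array. The difference was 4.33 (20.1-fold, SE 1.04, adjusted p = 0.00432). It was 5.65 without control array 1 and 3.35 (adjusted p = 0.0339) without control array 3. CCR2, a cinnamoyl-CoA reductase of the phenylpropanoid pathway, stood at 7.11, 6.48 and 6.29 in the control and at 10.05, 9.40 and 10.92 after salt. The salt arrays lay more than 2 log2 units above every control, and the difference was 3.50 (11.3-fold, SE 0.39, adjusted p = 2.04e-06).

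**Figure D1:**
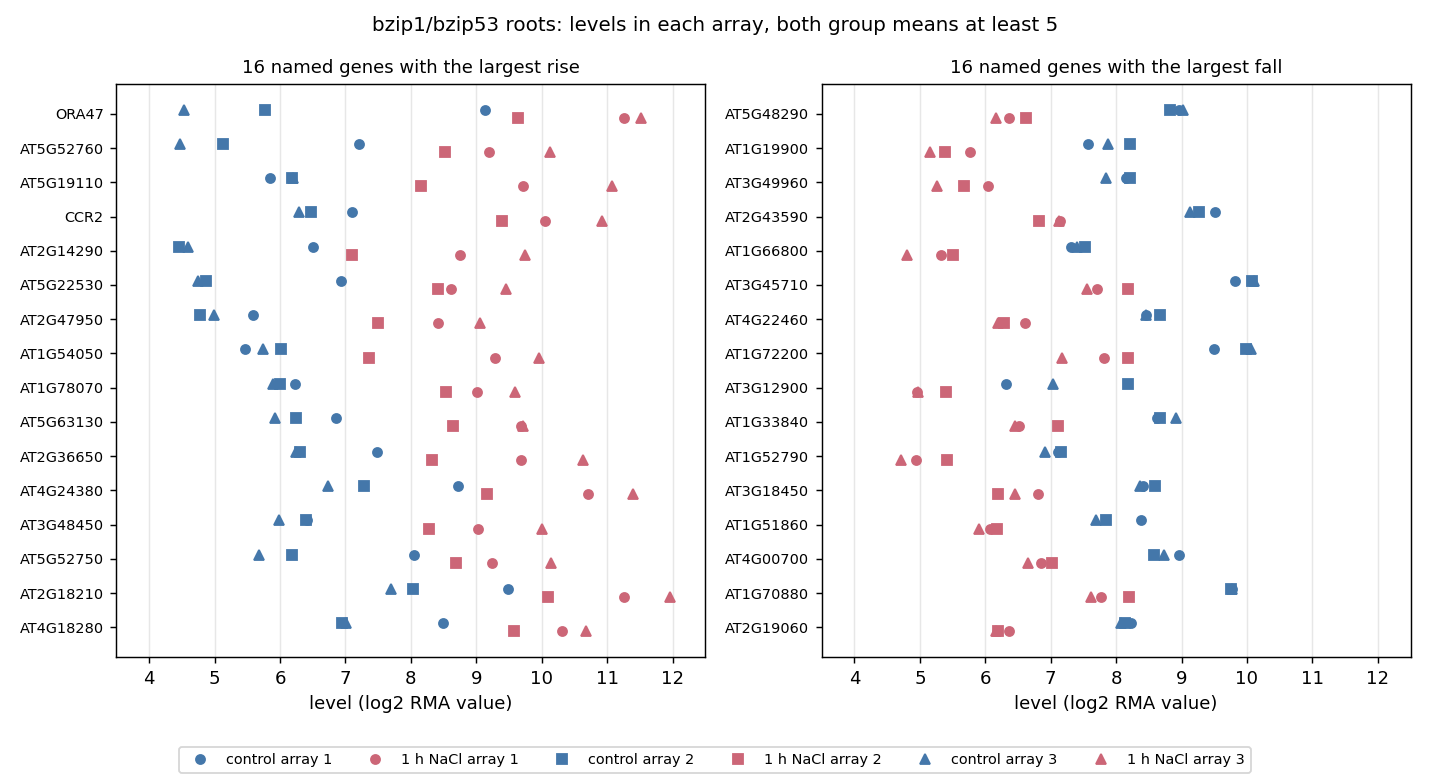
Levels (log2 RMA value, horizontal axis) of the 16 named genes with the largest rise (left) and the 16 with the largest fall (right) in bzip1/bzip53 roots after 1 h of 150 mM NaCl, with both group means at least 5. Blue points are the 3 control arrays and red points the 3 salt arrays, with the symbol giving the array number. The genes were chosen among those whose groups do not overlap, the control arrays of ORA47 run from 4.54 to 9.13, and the genes that fell show narrower spreads.

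Of the 16 named genes with the largest rise and both means at least 5, all but ORA47 and CCR2 carry only a locus code in the reference table, so no role is given for them here. AT5G52760 stood at 7.21, 5.13 and 4.48 in the control and at 9.20, 8.52 and 10.12 after salt (difference 3.67). Its neighbour by locus code, AT5G52750, stood at 8.06, 6.19 and 5.68 and rose to 9.23, 8.69 and 10.14 (difference 2.72). In both genes control array 1 was the highest control, and without it they differed by 4.47 and 3.42. AT5G19110 did not share that feature, with 5.84, 6.19 and 6.20 in the control and 9.72, 8.16 and 11.07 after salt (difference 3.57). Its difference was 4.32 without salt array 2 and 2.86 without salt array 3. AT1G78070 was among the tightest, with 6.23, 6.00 and 5.90 in the control and 9.02, 8.53 and 9.59 after salt (8.03-fold, adjusted p = 6.3e-07). The other 10 rose by 2.70 to 3.35, as the plot of leading genes shows. In AT2G14290, AT5G22530, AT1G54050, AT2G36650 and AT4G24380, leaving out 1 array at a time gave differences of 2.33 to 4.07. Each but AT4G24380 kept its call in all 6 such fits. For AT4G24380, with a difference of 2.84, the call was lost without control array 3 (2.42) or without salt array 3 (2.36).

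A further group rose from near the background. The largest difference on the array belonged to a probe set without a gene in the gene table, 258325_at, with 5.08, 4.79 and 4.21 in the control and 10.75, 9.38 and 10.64 after salt. It was picked out for its values. AT4G28140 stood at 4.98, 4.53 and 4.85 in the control and at 8.49, 8.93 and 8.15 after salt, the smallest spread of the 6 genes named from this group. AT1G76640, listed as CML39 (calmodulin-like 39, a calcium sensor), went from 5.50, 4.59 and 4.40 to 8.55, 6.47 and 9.81. Its difference was 4.35 without salt array 2 and 2.68 without salt array 3. AT2G26380, AT1G32970, AT3G28600 and AT3G53600 had salt arrays between 5.20 and 9.996.

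Of 8 measured calmodulin-like and calcium sensor genes, 4 rose, 1 fell and 3 were not called, with a median difference of 0.97 beside -0.02 over all probe sets. Of all probe sets, 10.6% rose and 13.5% fell. CML37 stood at 8.79, 5.95 and 4.96 in the control and 9.67, 8.46 and 10.41 after salt. Its control array 1 lay above salt array 2, and the difference of 2.95 (adjusted p = 0.044) lost its call without control array 2 (2.64) or 3 (2.15), or without salt array 1 (2.87) or 3 (2.50). Without control array 1 it was 4.06. CML23 (8.47, 7.54 and 6.82 against 9.55, 8.62 and 9.68, difference 1.67) lost its call without control array 3 (1.28), salt array 1 (1.54) or salt array 3 (1.48). The fourth, CML41, differed by 0.57 and kept its call only without salt array 2. CML43 went the other way, from 8.56, 8.59 and 8.43 to 7.35, 7.69 and 7.43 (difference -1.04, adjusted p = 1.04e-06). The number of risen members was 1 without control array 3, salt array 1 or salt array 3, 2 without control array 2, 3 without control array 1 and 4 without salt array 2.

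Plant U-box proteins attach ubiquitin to other proteins and mark them for breakdown, and several act as brakes on stress signalling. Of 9 measured members, 4 rose, beside 10.6% of all probe sets, none fell, and the median difference was 0.71. PUB19 stood at 7.47, 6.20 and 6.05 in the control and at 9.50, 8.25 and 9.64 after salt, with no overlap (5.87-fold, adjusted p = 0.000836). PUB24 went from 7.76, 6.82 and 6.76 to 8.74, 8.39 and 8.88 (difference 1.56). PUB26 differed by 0.80 and PUB25 by 0.71, and PUB25 lost its call without salt array 3 (0.53). PUB23 was not called, with 9.68, 8.51 and 7.80 in the control and 10.18, 8.86 and 10.86 after salt (difference 1.30, adjusted p = 0.131). It was called without salt array 2 (1.86, adjusted p = 0.0433) and with array weights (1.92, adjusted p = 0.000975).

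Apart from ORA47, 24 jasmonate gene names were written down and only 3 were measured, so most of them were not covered. Of the 3, 2 rose, beside 10.6% of all probe sets. OPCL1, a ligase that activates jasmonate precursors for chain shortening, stood at 9.09, 8.40 and 7.74 in the control and at 10.28, 8.86 and 11.12 after salt. DGL, a lipase that can release precursor fatty acids, stood at 4.42, 4.73 and 4.83 and at 6.10, 5.001 and 6.90. Both were called (differences 1.67 and 1.34), and the OPCL1 arrays overlapped. Neither was called with only the compared groups in the fit. OPCL1 was called without control array 1 (2.01) or salt array 2 but not without any of the other 4 arrays, where it differed by 1.16 to 1.67. DGL was called without salt array 2 but not without any of the other 5, where it differed by 0.89 to 1.43. JMT, which makes methyl jasmonate, was not called and lay near the background in both groups.

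Among transcription factors, WRKY53, a regulator of defence and senescence, stood at 9.13, 7.86 and 6.81 in the control and at 9.63, 9.09 and 9.96 after salt, with overlap. Its difference of 1.63 (adjusted p = 0.042) lost its call without control array 2 (1.59) or 3 (1.07) or without salt array 1 (1.59) or 3 (1.43), and was 2.23 without control array 1. WRKY47 fell from 7.09, 6.83 and 6.99 to 6.29, 6.44 and 6.28 (difference -0.63), and the other 5 of 7 measured WRKY genes were not called. Of these, WRKY22 was called without control array 1 (1.24, against 0.83 with it). The share of WRKY genes called in the main fit was near the 24.1% over all probe sets. The AP2/ERF gene listed as tny (TINY) fell from 7.28, 8.12 and 8.28 to 6.77, 6.86 and 6.31 (difference -1.25). STZ, a zinc finger repressor induced by salt, was not called (12.05, 10.91 and 10.19 against 12.14, 11.46 and 12.39, difference 0.95, adjusted p = 0.341). In STZ, control array 1 lay above salt array 2, and the difference without that control was 1.44. STZ was called with array weights (1.49, adjusted p = 0.0155) and with only the compared arrays without that control in the fit (adjusted p = 0.0221). Another S1 bZIP gene, bZIP44, rose from 9.14, 9.15 and 9.04 to 9.66, 9.65 and 9.74 (difference 0.57, adjusted p = 0.000148).

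Genes for late embryogenesis abundant (LEA) proteins and dehydrins, which protect proteins and membranes in drying cells, rose in 5 of 11 measured members and fell in none. The share risen over all probe sets was 10.6%, and the median difference of the group was 0.29. LTI30, a dehydrin, stood at 11.56, 11.10 and 10.94 in the control and at 13.01, 12.66 and 13.15 after salt (3.34-fold, SE 0.15, adjusted p = 1.18e-07). COR47, another dehydrin, went from 12.06, 12.05 and 12.01 to 12.79, 12.34 and 12.91 (difference 0.64). In neither did the groups overlap. COR15A and LEA4-5 rose from near the background to 5.83, 6.44 and 6.01 and to 5.54, 4.57 and 6.01, and LEA4-5 lost its call without salt array 3 (1.28). The fifth, AT2G46140, listed as LEA27, differed by 0.29 and lost its call without control array 1 (0.26) or 3 (0.26) or salt array 1 (0.30) or 3 (0.18). Without salt array 3, 3 members were called higher.

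Genes of the auxin response, in which Aux/IAA proteins repress transcription and GH3 enzymes attach amino acids to hormones, rose in 5 of 12 measured members and fell in 2. Over all probe sets 10.6% rose and 13.5% fell. IAA30 rose from near the background to 6.40, 5.79 and 6.47, and GH3.3 from near the background to 6.66, 6.17 and 6.603. GH3.1 stood at 5.19, 5.23 and 5.26 in the control and at 6.37, 5.61 and 6.61 after salt (difference 0.97), and lost its call without salt array 3 (0.76). WES1, which is GH3.5, went from 8.01, 8.21 and 8.18 to 8.80, 8.43 and 8.66 (difference 0.50). GH3.17 fell from 9.52, 9.73 and 9.72 to 8.92, 9.20 and 8.61 (difference -0.75, adjusted p = 0.000841). Members of 1 enzyme family thus moved in both directions. Without salt array 3, 3 members were called higher and 1 lower.

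Other genes with a symbol also rose. APS3, an ATP sulfurylase that starts sulfate assimilation, stood at 7.94, 7.37 and 7.30 in the control and at 9.93, 9.19 and 10.54 after salt (5.11-fold, adjusted p = 6.9e-06). GTR1, a transporter of glucosinolates, the sulfur-rich defence compounds of the cabbage family, went from 8.31, 7.75 and 7.62 to 9.76, 8.68 and 10.72 (3.54-fold). Fes1A, a partner of the HSP70 chaperones, went from 6.49, 6.99 and 6.65 to 8.22, 7.71 and 8.76 (2.87-fold). AR781, EXLA3, RING1 and SRC2 also rose, by 2.43, 2.39, 1.79 and 1.35, and each lost its call without control array 2 or 3 or without salt array 1 or 3 (EXLA3 differed by 1.85 to 2.40 and RING1 by 1.30 to 1.81). Without control array 1, AR781, EXLA3 and RING1 differed by 3.174, 3.11 and 2.41.

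Expansins loosen wall polymers and xyloglucan endotransglucosylases/hydrolases (XTH) cut and rejoin xyloglucan, and of 29 measured members 9 fell and 4 rose, beside 13.5% lower and 10.6% higher over all probe sets. EXPA18, an expansin of root hair cells, stood at 7.64, 7.81 and 7.68 in the control and at 6.09, 5.63 and 5.76 after salt (3.69-fold lower, SE 0.19, adjusted p = 6.33e-07). XTH21 went from 6.95, 6.72 and 6.65 to 5.47, 5.54 and 5.41 and XTH33 from 6.94, 7.30 and 7.02 to 6.12, 5.71 and 5.60. XTH26 fell to near the background, to 5.11, 4.73 and 4.97 from 6.83, 7.15 and 6.49. EXPA7 fell from 7.71, 8.41 and 8.08 to 7.65, 6.87 and 6.97 (difference -0.90), and its call was lost without control array 2 (-0.74), salt array 2 (-0.76) or salt array 3 (-0.81).

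Of 33 root hair gene names written down 3 were measured, EXPA18, EXPA7 and XTH26. All 3 fell, beside 13.5% of all probe sets, and they are among the 9 fallen expansin and XTH genes counted above. The expansin and XTH members that rose were XTH20, EXLA3, EXLA2 and EXPA9. XTH20 went from 9.27, 9.41 and 9.34 to 10.41, 10.24 and 10.64 (difference 1.09, limma adjusted p = 2.54e-06). Without salt array 3, 6 members were called lower and 2 higher.

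Trichome birefringence-like (TBL) proteins acetylate wall polysaccharides, and 9 of 23 measured members fell and none rose, beside 13.5% lower over all probe sets. Without any 1 array the count was 8 or 9. TBL21 stood at 6.34, 6.76 and 6.58 in the control and at 5.31, 4.94 and 5.15 after salt, and TBL34 went from 7.61, 7.79 and 7.57 to 6.72, 6.65 and 6.54. Of 15 measured GH9 cellulase genes 2 fell, a share near that over all probe sets, and 1 rose. GH9C1, an endoglucanase that carries a cellulose-binding module, fell from 7.83, 7.90 and 7.67 to 6.58, 5.58 and 6.14 (3.24-fold lower, adjusted p = 2.79e-05). RALFL27, of a family of secreted signal peptides that restrain growth, fell from 7.24, 6.995 and 6.64 to 5.42, 5.57 and 5.21. It was the only called gene of 11 measured in that family. The groups did not overlap in these 4 genes. The lists of this paragraph were added after values had been seen, so their counts describe the choice.

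**Figure D2:**
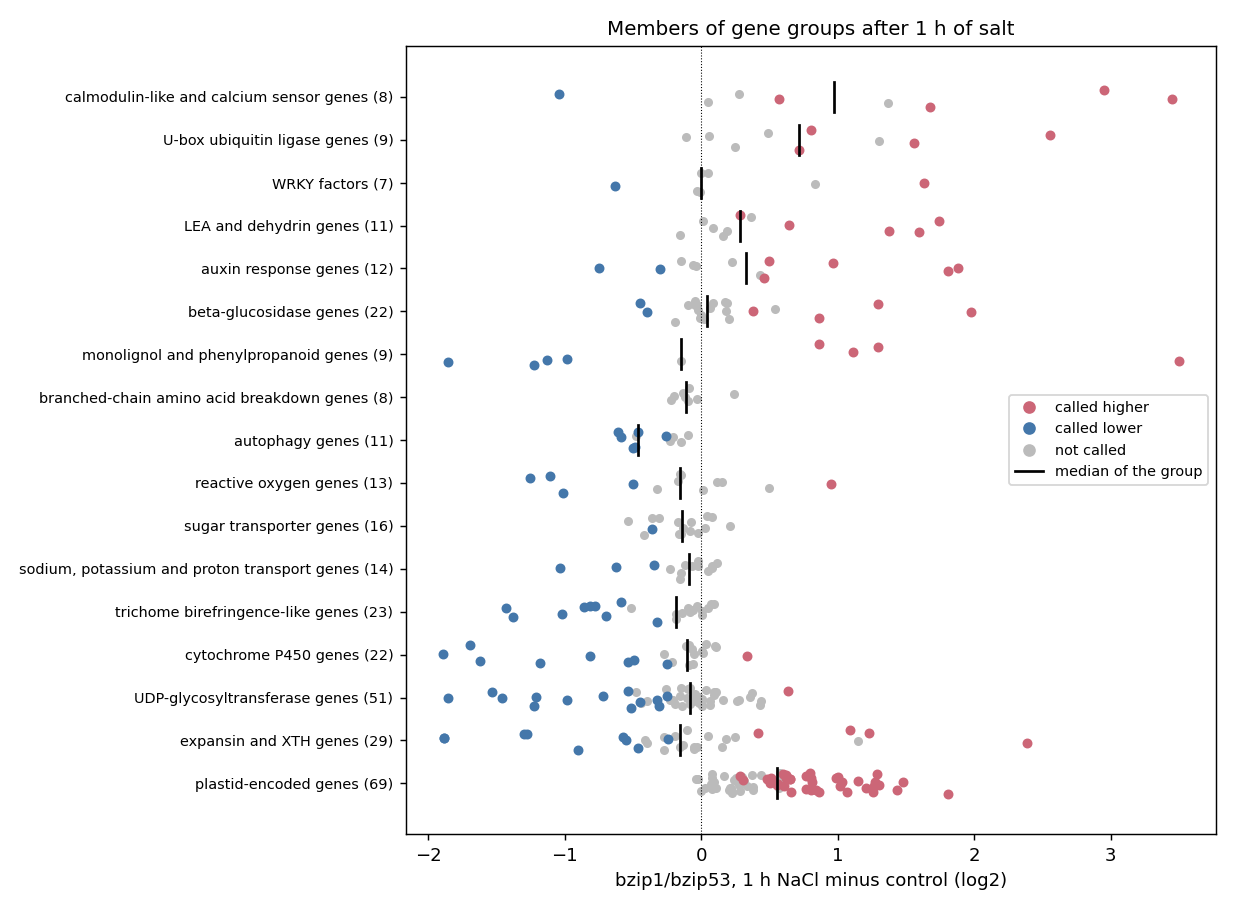
Difference after 1 h of salt in bzip1/bzip53 roots (log2, horizontal axis) for each measured member of 17 gene groups, with the number measured in brackets. Red points were called higher, blue points lower and grey points neither, and black bars are medians. Autophagy, trichome birefringence-like and ion transport genes have no red points, the U-box and LEA genes have no blue points, and 38 of 69 plastid-encoded genes are red.

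UDP-glycosyltransferases add sugars to hormones and phenolic compounds, and 13 of 51 measured members fell and 1 rose, while 37 were not called, beside 13.5% lower over all probe sets. UGT71C1 stood at 10.22, 10.56 and 10.33 in the control and at 8.91, 8.94 and 8.67 after salt (2.88-fold lower, adjusted p = 2.4e-06). Of 22 measured cytochrome P450 genes 8 fell, beside the same 13.5%, 1 rose and 13 were not called. Both groups lay near the background in 21 of the glycosyltransferase and 12 of the P450 genes. The glycosyltransferase and P450 lists were also added after values had been seen, so their counts describe the choice. CYP71B26 stood at 8.22, 8.15 and 8.01 and at 6.42, 6.50 and 5.78, and CYP71B23 at 8.10, 8.26 and 8.08 and at 6.27, 6.79 and 6.29. Most of the 22 P450 genes were CYP71B members, as were all 5 with the smallest p, so the counts describe mainly this subfamily. CYP71B genes are similar in sequence, so their probe sets may share signal. Without control array 1, 10 glycosyltransferases and 5 P450 genes were called lower. Of the glutathione transferases on the reactive oxygen list, GSTU28, GSTU27 and GSTU21 fell by 1.25, 1.11 and 1.01 on the log2 scale without overlap, and GSTU25 rose (0.95, not called without control array 1 or 3 or salt array 1 or 3). GSTU26 also fell, by 0.50, and kept its call only without salt array 1 or 3.

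Several genes around monolignols, the building blocks of lignin, moved in opposite directions. This list was written after the values had been seen, so its counts describe the choice. Of 26 names written down 9 were measured. Of these, 4 rose and 4 fell, beside 10.6% higher and 13.5% lower over all probe sets. Besides CCR2, the risen genes were BGLU46 and BGLU45, glucosidases that release monolignols from their glucosides, and CCOAMT, listed as a caffeoyl-CoA methyltransferase. BGLU46 stood at 8.36, 8.47 and 7.94 in the control and at 9.46, 8.93 and 10.24 after salt (difference 1.29, adjusted p = 0.00314). BGLU45 rose by 0.86 from a mean of 4.86, and lost its call without salt array 3 (0.68).

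The falling members included the 3 glucosyltransferases of monolignols and their aldehydes. UGT72E1 went from 8.45, 8.71 and 8.35 to 6.53, 6.93 and 6.49 (3.62-fold lower, SE 0.16, adjusted p = 1.53e-07). UGT72E3 stood at 7.47, 7.58 and 7.47 in the control and at 6.54, 6.21 and 6.11 after salt, and UGT72E2 at 9.58, 9.40 and 9.48 and at 8.52, 8.64 and 8.36. Thus all 3 members of the UGT72E group fell, by 0.98 to 1.85 on the log2 scale, without overlap. ALDH2C4, an aldehyde dehydrogenase that makes ferulic and sinapic acids, fell from 11.15, 11.26 and 11.26 to 10.08, 10.25 and 9.95. HCT, an early enzyme of the pathway, was not called (10.81, 10.88 and 10.75 against 10.68, 10.77 and 10.55).

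Among the named genes with the largest fall, AT5G48290 stood at 8.95, 8.83 and 9.02 in the control and at 6.36, 6.62 and 6.17 after salt (5.87-fold lower, SE 0.19, adjusted p = 2.77e-08). All 16 of these genes carry only a locus code, and the others fell by 1.90 to 2.45 on the log2 scale. AT3G12900 had the widest spread in the control, with 6.31, 8.18 and 7.04 against 4.96, 5.39 and 4.98 after salt. AT1G70880 had one of the narrowest, with 9.78, 9.75 and 9.77 against 7.77, 8.19 and 7.61. The probe set with the largest fall of all, 246652_at, has no gene in the gene table and was likewise picked out for its values. It went from 8.80, 8.24 and 8.20 to 5.61, 5.38 and 5.23 (8.04-fold lower, adjusted p = 4.31e-07).

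Amino acid and energy metabolism, the processes tied to BZIP1 and BZIP53 in earlier work, were measured only in part. Of 27 starvation marker and SnRK1 names written down 1 was measured, and of 14 proline metabolism names 0. Of 8 measured genes of branched-chain amino acid breakdown, none was called by limma in either direction (0 of 8), beside 24.1% of all probe sets. At an unadjusted p under 0.05 there were 2, and the differences of the 8 ran from -0.22 to 0.24. ETFBETA, a subunit of the flavoprotein that takes electrons from this pathway, stood at 8.19, 8.23 and 8.04 in the control and at 8.37, 8.47 and 8.33 after salt (adjusted p = 0.113). D2HGDH, a dehydrogenase of the same electron route, stood at 6.84, 6.96 and 6.84 and at 6.66, 6.71 and 6.61. Both differences were under 0.25. ETFBETA was called with the replicate block (adjusted p = 0.0498) and with array weights (0.017), and D2HGDH with array weights (0.0174), where 1 of the 8 was higher and 2 were lower. In wild type at 1 h, the main fit called 1 of the 8 higher and 2 lower, beside 9.33% and 15.4% of all probe sets. The difference of responses was called in 0 of the 8.

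Autophagy, the breakdown of cell contents in vacuoles, was represented by 11 genes, mostly of the ATG8 family that marks the forming vesicles. Of these, 6 fell, beside 13.5% of all probe sets, and none rose, with a median difference of -0.46. ATG8D stood at 8.76, 8.78 and 8.63 in the control and at 8.11, 8.15 and 8.09 after salt (difference -0.61, adjusted p = 1.3e-05). APG8A, also called ATG8A, went from 10.07, 9.96 and 9.98 to 9.43, 9.47 and 9.34 (difference -0.59). Leaving out 1 array at a time gave 4 to 7 members called lower, with ATG8F not called without salt array 3 (-0.36) and ATG8H not called without salt array 2 (-0.36).

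Of 14 measured genes for sodium, potassium and proton transport, 3 fell and none rose, and 9 had control means near the background. All 14 were CHX exchangers or glutamate receptor-like channels, so other sodium and potassium transporters were not covered. The share called was near the 24.1% over all probe sets. CHX16, a cation/proton exchanger, stood at 6.79, 6.86 and 6.79 in the control and at 5.76, 5.95 and 5.62 after salt (2.05-fold lower, adjusted p = 0.000104). The glutamate receptor-like channels GLR3.5 and GLR3.3 fell by 0.62 and 0.34 on the log2 scale. The 16 measured sugar transporter genes were all SWEET genes, and 8 of them lay near the background in both groups. SWEET17, a fructose carrier of the vacuole, was the only one called. It stood at 9.68, 9.87 and 9.82 in the control and at 9.38, 9.56 and 9.36 after salt, and lost its call without control array 2 (-0.32), salt array 1 (-0.33) or salt array 3 (-0.32).

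Of 69 plastid-encoded genes, 38 rose in the mutant, none fell and 31 were not called, with a median difference of 0.56. The share risen over all probe sets was 10.6%. In wild type over the same hour, where 9.33% of all probe sets were called higher and 15.4% lower, 3 rose and 1 fell, with a median of -0.05. The median level of the 69 genes was 6.62, 7.09 and 7.07 in the mutant control arrays and 7.41, 7.70 and 7.80 in the mutant salt arrays. Wild-type arrays lay at 7.86, 7.68 and 7.82 in the control and at 7.61, 7.42 and 7.77 at 1 h. The mutant control arrays thus lay below the other 9 arrays of these hours. In the later hours similar medians occurred, with 7.05, 7.25 and 6.999 in the mutant at 3 h and 7.07, 7.05 and 7.05 in wild type at 6 h. The mutant 1 h arrays lay within the range of the wild-type control and 1 h arrays together but for salt array 1, which was just below it. Against the wild-type 1 h arrays alone, salt array 3 (7.80) also lay outside, above their highest value of 7.77.

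Single plastid genes repeated this pattern. The gene petL, for a small subunit of the cytochrome b6f complex, stood at 3.45, 3.95 and 4.26 in the mutant control and at 5.15, 5.56 and 5.36 after salt. The gene rpoC1, for a subunit of the plastid RNA polymerase, stood at 5.52, 6.80 and 6.78 and at 7.60, 7.61 and 7.80 (difference 1.31, adjusted p = 0.000279). Control array 1 was the lowest in both, and without it rpoC1 differed by 0.88. Without control array 1, 28 plastid genes were called higher and the median was 0.31. With only the 6 mutant arrays in the fit 10 were called, and 14 with only these and without control array 1.

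Among the control and 1 h arrays, control array 1 of the mutant also stood apart in measures of RNA quality. The probe set for 25S ribosomal RNA read 11.93, 12.63 and 12.52 in the mutant control and 13.15 to 13.28 after salt. In wild type it read 12.58 to 12.71 in the control and 13.20 to 13.37 after salt. The gap between the 3' and 5' probe sets of actin, which widens as RNA is broken, was 3.172 on control array 1, 2.599 and 2.402 on the other controls and 2.65 to 2.72 after salt. On mutant 6 h array 1 the actin gap was 3.157. What part these measures had in the plastid result was not tested.

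**Figure D3:**
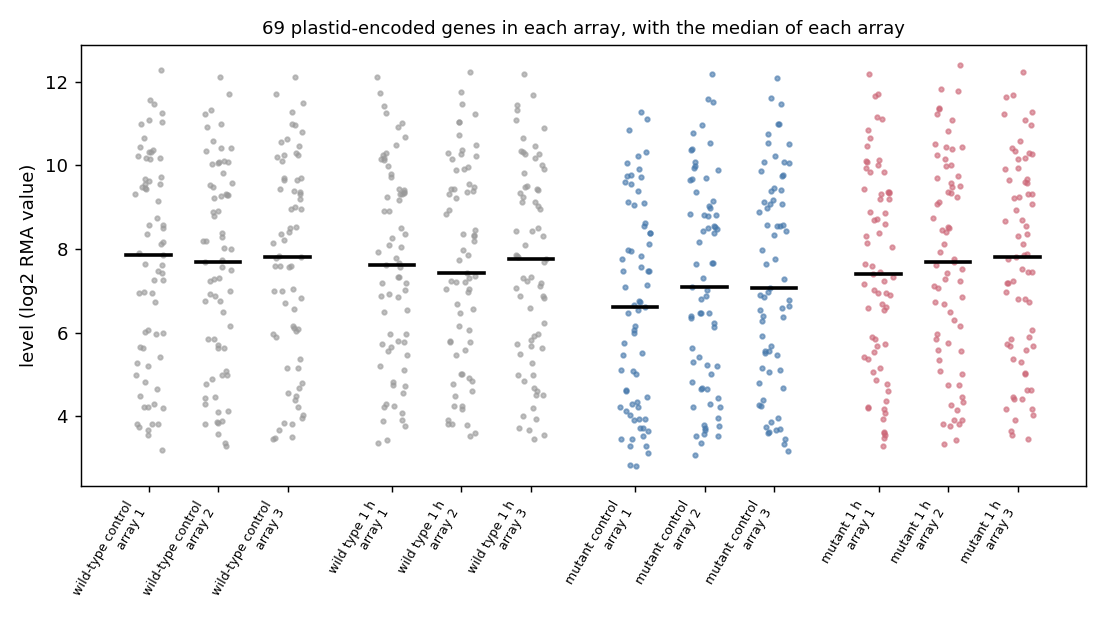
Levels (log2 RMA value, vertical axis) of 69 plastid-encoded genes on each of 12 arrays, with a black bar at the median of each array. The medians of the 3 mutant control arrays, 6.62, 7.09 and 7.07, lie below those of the wild-type arrays and of the mutant salt arrays.

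Wild type was sampled at the same hour, and the difference of the responses was tested directly. No probe set was called (0 of 22746), 830 had an unadjusted p under 0.05 (3.65%), and the smallest adjusted p was 0.08. The 830 included 37 of the 69 plastid-encoded genes. The median half-width of the 95% interval of such a difference was 0.33 on the log2 scale, and differences above it could also miss the adjusted threshold, as cox1 did. Under other settings 0 to 7 probe sets were called. The genotypes share no arrays in these comparisons. Of the 583 probe sets that rose at least 2-fold in wild type, 516 (88.5%) were called higher in the mutant, and of the 577 that fell, 571 (98.96%) were called lower. All 1160 had the same sign in the mutant, with median differences of 1.59 against 1.63 in wild type for the first and -1.33 against -1.38 for the second. Of the 605 that rose at least 2-fold in the mutant, 580 had the same sign in wild type and 533 (88.1%) were called higher there, and of the 545 that fell, all 545 had the same sign and 544 (99.8%) were called lower. ORA47 differed by 4.37 in wild type, CCR2 by 3.09, EXPA18 by -1.69 and UGT72E1 by -1.44.

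**Figure D4:**
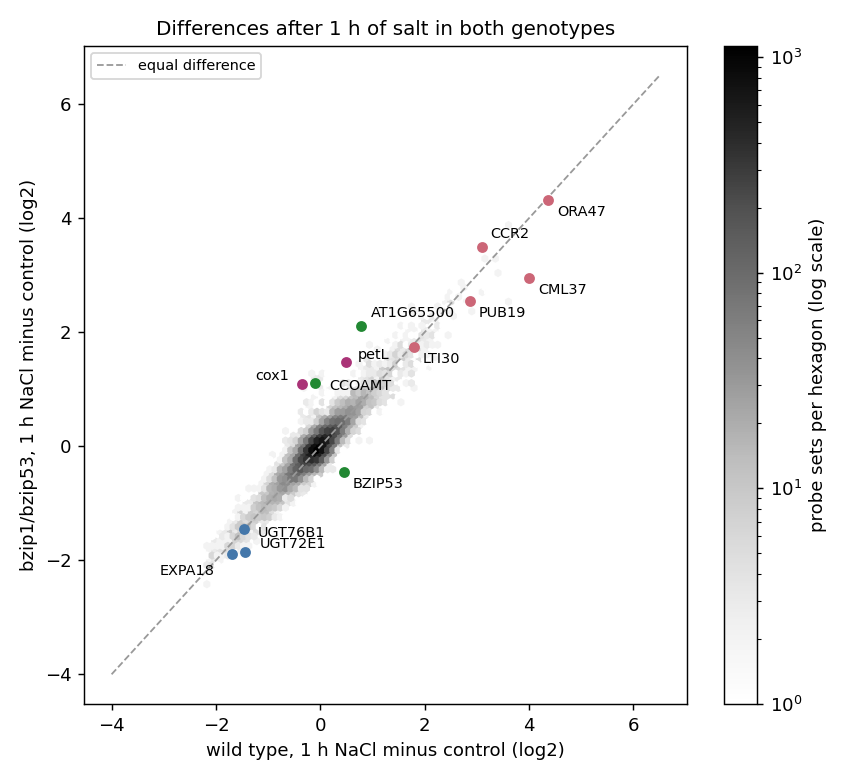
Difference after 1 h of salt in wild type (horizontal axis) and in bzip1/bzip53 (vertical axis), both log2. Grey hexagons count the 22746 probe sets on a log scale and the dashed line marks equal differences. Coloured points are named genes that rose (red) or fell (blue), organelle genes (purple) and other nuclear genes named for their difference of responses (green), and most large differences lie near the line, with BZIP53 below it and cox1, petL, AT1G65500 and CCOAMT above it.

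The 8 named genes whose responses differed with the smallest p were BZIP53 itself, 6 organelle genes and AT1G65500. BZIP53 rose in wild type by 0.45 and fell in the mutant by 0.45 (difference of responses -0.89, 95% interval -1.19 to -0.59, adjusted p = 0.08). This difference was called with array weights (adjusted p = 0.00502), the trend and robust prior (0.0485), centred arrays (0.0371), without mutant control array 3 (0.0478) and without wild-type control array 3 (0.00112). The mitochondrial gene cox1, for a subunit of cytochrome c oxidase, stood at 6.57, 6.98 and 7.26 in the mutant control and at 7.61, 8.25 and 8.25 after salt. In wild type it stood at 8.37, 8.26 and 8.43 and at 7.96, 8.14 and 7.92. The mutant control arrays were thus the low ones, and the difference of responses was 1.45 (0.95 to 1.95, adjusted p = 0.08). The plastid genes rps2 (0.95), matK (0.94) and rps15 (1.496) and the mitochondrial genes nad4 (0.97) and orfX (0.71) shared its direction, with adjusted p of 0.0854 to 0.824. Without mutant control array 3, cox1, rps2, matK, rps15 and nad4 were called, and cox1, rps2 and matK also with the trend and robust prior. Without mutant salt array 1, cox1 was called too.

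AT1G65500 was the one nuclear gene beside BZIP53. It stood at 5.27, 5.04 and 5.34 in the mutant control and at 6.97, 7.46 and 7.54 after salt. In wild type it stood at 6.16, 6.24 and 6.26 and at 6.68, 6.56 and 7.80, so it started lower in the mutant and the salt arrays of the genotypes overlapped. The difference of responses was 1.32 (0.67 to 1.97), and its adjusted p was 0.824. It was called without wild-type 1 h array 3 (1.71, adjusted p = 0.00179). CCOAMT stood at 7.75, 7.69 and 7.87 in the mutant control and at 8.74, 8.94 and 8.97 after salt, against 8.00, 8.25 and 8.57 and then 7.59, 8.20 and 8.73 in wild type. It was called in the mutant only (1.11 against -0.10), and the difference of 1.21 (0.34 to 2.08) had an adjusted p of 1.

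The later hours of the same mutant place the first hour in a course. The comparisons at 3 h and 6 h use the same control arrays as that at 1 h. At 3 h 10342 probe sets (45.5%) were called and at 6 h 10899 (47.9%). CCR2 went on to 11.52, 11.59 and 11.42 at 3 h and 11.12, 11.23 and 10.78 at 6 h, and rose between 1 h and 3 h (1.39, adjusted p = 0.0103). GH3.3 reached 10.91, 10.63 and 10.43 at 3 h, after 6.17 to 6.66 at 1 h (3 h minus 1 h 4.18, adjusted p = 1.79e-11). ORA47 stood at 11.33, 11.57 and 10.92 at 3 h, and its 3 h minus 1 h difference of 0.47 was not called (adjusted p = 0.8).

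Some genes that fell at 1 h were higher later. UGT76B1, which glucosylates isoleucic acid and salicylic acid, stood at 8.84, 8.99 and 9.11 in the control and at 7.47, 7.49 and 7.61 at 1 h. It then stood at 9.21, 8.79 and 8.88 at 3 h and at 9.39, 9.72 and 9.93 at 6 h, so the 1 h arrays were the only ones below the control range by more than 1 log2 unit. The difference was -1.46 at 1 h (adjusted p = 1.11e-06) and 0.70 at 6 h (adjusted p = 0.000833), and 3 h exceeded 1 h by 1.44 (adjusted p = 1.37e-06). ATG8H went from 7.73, 7.88 and 7.72 in the control to 7.48, 7.04 and 7.36 at 1 h and to 8.67, 8.33 and 8.57 at 3 h. The peroxidase gene AT5G66390, listed as PRX72, went from 10.17, 10.20 and 9.98 to 9.29, 9.02 and 9.42 at 1 h and to 10.75, 10.65 and 10.75 at 3 h. Both changed between 1 h and 3 h (1.23, adjusted p = 1e-06, and 1.47, adjusted p = 1.82e-08). PYK10, the beta-glucosidase of root endoplasmic reticulum bodies, was lower at 1 h (-0.45) and 3 h (-0.51) and higher at 6 h (0.38, adjusted p = 0.0108).

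**Figure D5:**
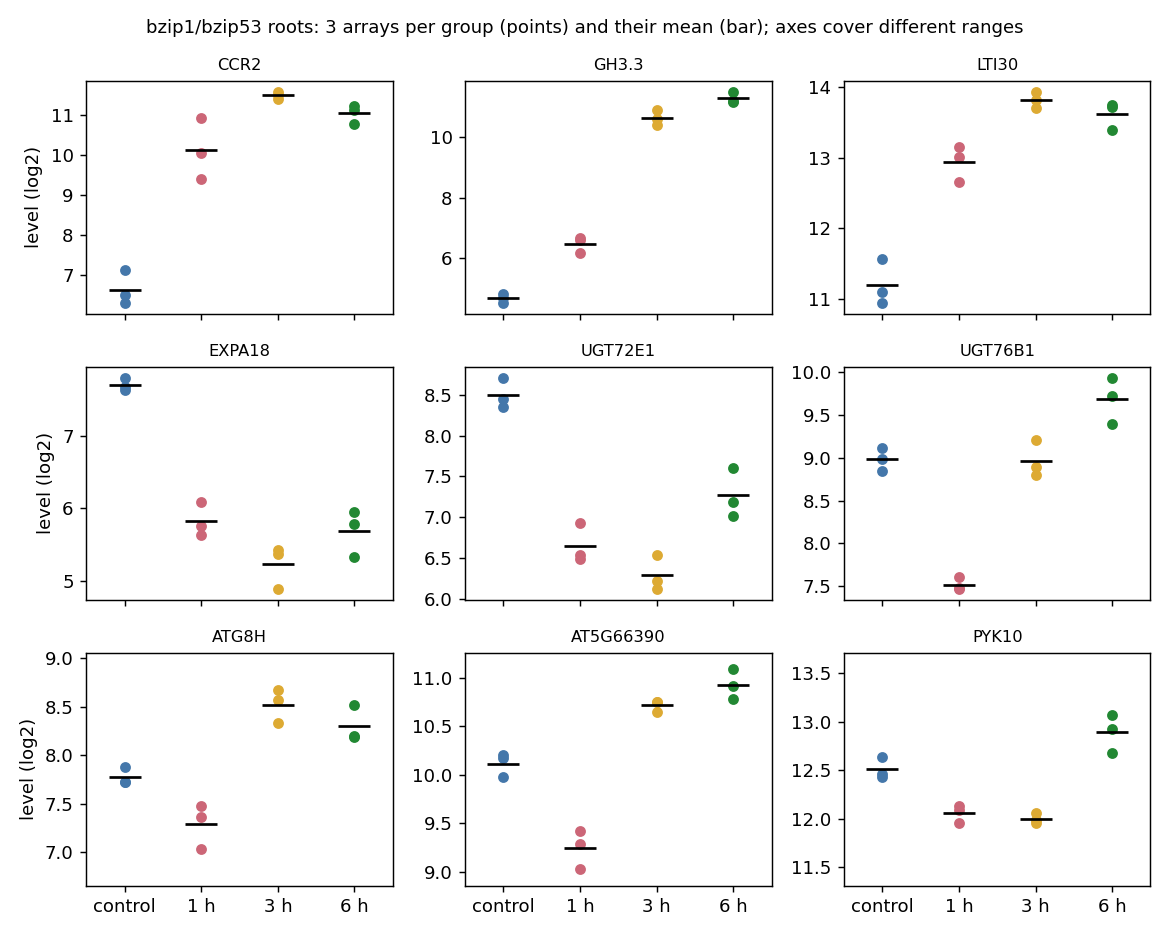
Levels (log2 RMA value, vertical axes over different ranges) of 9 genes in bzip1/bzip53 roots without salt and after 1 h, 3 h and 6 h of 150 mM NaCl. Points are the 3 arrays of a group and bars their mean. CCR2, GH3.3 and LTI30 are higher at 3 h than at 1 h, EXPA18 and UGT72E1 stay below the control, and UGT76B1, ATG8H, AT5G66390 and PYK10 end above their 1 h level.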

How the data were processed

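Root RNA was measured on 24 Affymetrix ATH1 arrays in 8 groups of 3. The authors deposited log2 values, a scale read from their span (2.46 to 14.04). Per the submitters' processing notes, the tools were RMA, affy and limma and the build TAIR9. Tool versions are not given in the sources. Array medians ran from 6.53 to 6.67.

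Of 22810 probe sets, 64 controls were left out. The platform annotation gives 13513 probe sets a single gene, 503 more than 1 and 8730 no gene. Symbols were updated through a RefSeq table of TAIR10.1, which matched 13436. For 152 genes with more than 1 probe set, the brightest on average stands for the gene.

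The group means of all 24 arrays were fitted together in limma 3.58.1 under R 4.3.3, with 16 residual and 3.83 prior degrees of freedom, two-sided tests and Benjamini-Hochberg adjustment over 22746 probe sets. The fit was tested on simulated data. The number of arrays limits the precision.

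The genes, lists and rules were chosen with earlier results of these data known. Genes named were, among called probe sets with 1 gene and no overlap, the 16 highest and 16 lowest with both means at least 5. From the same probe sets came the 6 highest and 6 lowest with 1 mean under 5 and the other at least 6. Chosen without asking for a call or for no overlap were the 8 genes with the smallest p for the difference of responses and BZIP53. The same holds for up to 5 members of each list with the smallest p. Added after values were seen were 13 of the 53 lists and the 14 highest and 14 lowest genes with a symbol. These 14 and 14 were again called, without overlap and with both means at least 5. CML41, EXLA2, EXPA9, UGT72E2, ALDH2C4, HCT and CCOAMT stand outside these rules where they do not rank among the first 5 of a list, and were named to account for called members after their values were seen. Lists were described by counts and medians, with no set test. Promoter motifs were not analysed here.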

Additional observations from a re-analysis of the deposited data

Results flagged for a closer look

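The probe sets for bacterial RNAs added during labelling gave a signal on 1 array only. On mutant control array 1 the highest of the 24 such probe sets read 8.34 and their median was 4.49, while on the other 23 arrays the highest was 4.69 and the median 3.23. What it means for that array's other values was not tested. In groups of 3 arrays single values were not tested for outliers.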

How the results depend on the processing

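For the 1 h comparison the main count of 5473 called probe sets became 3557 with only the compared groups in the fit (3896 of these arrays without mutant control 1), 8759 with array weights, 3239 at an adjusted p under 0.01 and 1150 with a fold of at least 2. It was 5376 with an intensity trend and robust prior, 5783 with arrays centred on their medians (34.1% of them higher, against 43.9%) and 5404 with dim probe sets left out. Leaving out 1 array at a time gave 3914 to 5032. For the difference of responses, limma called 0 in the main fit, 1 with array weights, 4 with the trend and robust prior, 1 with centred arrays, and 0 to 7 without 1 array, with 7 without mutant control 3, 2 without mutant 1 h array 1, and 1 each without wild-type control 3 and wild-type 1 h array 3. The cause was not tested. With the replicate number as a block the counts were 5531 and 0. The mutant's same-numbered arrays had correlations of deviations of 0.13, 0.19 and -0.36, and not every array correlated best with its own number, so the numbers were not taken as pairs. Between mutant and wild type at 1 h the same numbers correlated at 0.18, 0.70 and 0.72, each the best match, and in the controls at -0.40, 0.21 and -0.54. LHCB4.1, not called, differed by -0.01, and by -0.12 to 0.10 without 1 array, with 0.04 without mutant 1 h array 1 and 0.07 without array 3. The 3 arrays per group and probe sets near the background limit what could be detected.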

Other observations

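In families not described above, TET9, a tetraspanin membrane protein, stood at 5.12, 3.97 and 3.95 in the mutant control and at 6.84, 5.38 and 7.94 after salt, and BGLU24 at 4.86, 4.17 and 3.88 and at 6.65, 4.89 and 7.31. Both rose from near the background, and TET9 was not called without salt array 3 (1.77, against 2.38 with it). NDB2, an alternative NAD(P)H dehydrogenase of mitochondria, rose from 7.37, 7.43 and 7.59 to 8.47, 7.94 and 8.86 (difference 0.96, limma adjusted p = 0.00125). SDH1-2, a subunit of succinate dehydrogenase, fell from 6.27, 6.52 and 6.29 to 5.64, 5.38 and 5.59 (difference -0.82, limma adjusted p = 0.00101).

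The mutant without salt and wild type without salt differed in which array read high for salt-responsive genes. Over the 583 probe sets that rose at least 2-fold in wild type, wild-type control array 3 had a median of 7.06 against 6.10 on both other wild-type controls, and it was the highest of the 3 for 76.5% of them. At 1 h the order of the arrays was alike in the genotypes, with array 2 lowest (7.92 in wild type, 7.73 in the mutant) and array 3 highest (8.90 and 8.96). These wild-type arrays chose the probe sets, so their values are a description.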
